A study of Mus musculus with 2 samples.

Results

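Collagen chains are a main product of skin fibroblasts, and their transcripts were followed here through 2 single-cell RNA-seq libraries of wounded mouse back skin. Every gene of the deposited tables whose symbol is Col, a number, the letter a and a number was taken, which gave 44 of 31053 genes, from 27 numbered collagen types. Both libraries hold live cells, sorted as 7AAD-negative and captured with the 10x Genomics 3′ kit, from wound tissue of back skin of C57BL/6 mice of the genotype Mrc1-DTR, 7-9 weeks old. One group received PBS and the other Diphtheria toxin (DTX). Mrc1-DTR mice carry a toxin receptor transgene driven by the Mrc1 promoter, which is active in macrophages that bear the mannose receptor CD206, so that the toxin should kill those cells. Tissue was taken on day 5 after wounding, with 3 mice of a group pooled into 1 library, so that the groups have no biological replicates. The labels give Mrc1-DTR for both groups, whereas the study's methods describe wild-type mice given toxin as controls, and which of these applies to the library given PBS cannot be told apart here.

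Collagens are proteins of 3 chains wound into a triple helix, in which glycine must recur in each chain as a Gly-X-Y repeat. The fibril-forming types I, III and V give dermis and scar their tensile strength, type IV forms the sheet of basement membranes under epithelium and around vessels, type VI forms beaded filaments around cells, type VII anchors the epidermis to the dermis, and type XVII spans the membrane of basal keratinocytes. Where the chains of a helix differ, they are encoded by separate genes, so the relative levels of such partner chains bear on which helices a cell can build. In a healing skin wound, fibroblasts that enter the granulation tissue are the main known source of fibrillar collagen.

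The shared feature of the members is written in their coding sequences. A stretch of 225 coding bases is shown for a fibrillar chain, a basement membrane chain and a transmembrane chain, 5′ to 3′ and in frame, with each glycine codon in capitals, so that the difference between an unbroken and an interrupted repeat can be read off.
Col1a1, coding bases 502 to 726: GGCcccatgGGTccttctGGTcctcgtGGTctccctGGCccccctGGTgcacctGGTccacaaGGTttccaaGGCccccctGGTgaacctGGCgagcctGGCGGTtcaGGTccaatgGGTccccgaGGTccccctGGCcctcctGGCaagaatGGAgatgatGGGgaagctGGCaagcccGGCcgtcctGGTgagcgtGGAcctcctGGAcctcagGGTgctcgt
Col4a1, coding bases 379 to 603: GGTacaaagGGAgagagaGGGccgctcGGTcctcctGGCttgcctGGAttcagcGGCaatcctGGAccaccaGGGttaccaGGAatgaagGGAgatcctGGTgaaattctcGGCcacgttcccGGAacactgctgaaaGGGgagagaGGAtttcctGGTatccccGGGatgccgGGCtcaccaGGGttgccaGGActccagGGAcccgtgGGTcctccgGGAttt
Col17a1, coding bases 1942 to 2166: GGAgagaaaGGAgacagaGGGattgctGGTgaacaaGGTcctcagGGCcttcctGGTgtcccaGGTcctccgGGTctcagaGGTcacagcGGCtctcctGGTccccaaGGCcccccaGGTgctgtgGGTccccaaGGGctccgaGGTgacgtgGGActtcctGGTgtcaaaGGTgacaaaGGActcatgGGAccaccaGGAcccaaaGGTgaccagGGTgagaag
These stretches hold 26, 24 and 25 glycine codons of 75. The regular spacing of capitals in Col1a1 and Col17a1 is broken in Col4a1 where the sequence between capitals runs longer. This contrast follows from how the stretches were chosen. Those of Col1a1 and Col17a1 begin at the longest unbroken run of the gene, and that of Col4a1 was set around a break. The stretches do not show whether the repeat of Col17a1 is broken elsewhere. The sequences and positions are from GENCODE vM21 transcripts on GRCm38. On that build Col1a1 lies at chr11:94936224-94953042 on the plus strand, Col4a1 at chr8:11198423-11312826 on the minus strand and Col17a1 at chr19:47646344-47692094 on the minus strand. All 44 members had a run of at least 20 consecutive Gly-X-Y codon triplets, and 64 of 21822 measured genes with a coding sequence did (0.293%). The longest run was 338 triplets in Col1a1, 339 in Col1a2 and 344 in Col3a1, against 40 in Col4a1, 56 in Col17a1 and 75 in Col7a1.

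Type IV genes are arranged head to head. The starts of Col4a1 and Col4a2 (chr8:11312805-11449287, plus strand) lie 21 bases apart, those of Col4a3 and Col4a4 72 bases and those of Col4a5 and Col4a6 1309 bases. The 300 bases around the start of Col4a1 are shown because the starts of both genes lie in them, and their levels are compared further on. The sequence is RefSeq, GRCm38.p6, chr8:11312777-11313076, minus strand, with 250 bases before and 50 after the start of Col4a1, and the capitals mark the 78 bases that also belong to the window around the start of Col4a2.
Col4a1 start: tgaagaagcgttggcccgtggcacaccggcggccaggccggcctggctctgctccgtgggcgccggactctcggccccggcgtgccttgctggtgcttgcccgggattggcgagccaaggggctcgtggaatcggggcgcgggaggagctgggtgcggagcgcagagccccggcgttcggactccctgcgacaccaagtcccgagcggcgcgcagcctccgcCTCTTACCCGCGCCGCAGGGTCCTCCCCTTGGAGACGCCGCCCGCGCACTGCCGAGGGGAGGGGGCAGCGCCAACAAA
Other members also neighbour each other, with Col3a1 and Col5a2 24615 bases apart on chromosome 1 and Col6a1 and Col6a2 85162 bases apart on chromosome 10. Of the members named below, Col4a1, Col4a2, Col10a1, Col12a1, Col14a1, Col15a1, Col18a1 and Col24a1 overlap a measured gene on the other strand. How reads in such overlaps were assigned was not tested.

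The PBS-labelled library held 12058 cell barcodes and the DTX-labelled library 11031. The study's text gives these cell numbers with the groups exchanged, so the direction of every ratio here rests on the sample labels. After cells with fewer than 500 genes, over 6% mitochondrial UMIs or a doublet call were left out, 7944 cells with 81235634 UMIs stayed in the PBS-labelled library (median 9579.5 UMIs per cell) and 6613 cells with 54872675 UMIs in the DTX-labelled library (median 7286). The libraries shared 37 barcodes, 13 of them among kept cells. Cells were clustered without the collagen genes and classes were named from markers ("-like"). The targeted gene, Mrc1, stood at 492 CPM (UMIs per 1000000 UMIs of the cells named, 95% interval 477 to 507) in macrophage-like cells of the PBS-labelled library and at 429 CPM (422 to 437) in those of the DTX-labelled library. Over all kept cells it stood at 65.4 CPM and 268 CPM, in the opposite order to that of a depletion, while macrophage-like cells were 21.4% and 67.0% of kept cells. Groups are therefore called by their labels throughout. A UMI stands for 1 captured transcript whatever its length, so CPM needs no division by length, though genes can be caught with different efficiency, and every interval here covers counting error only. Ratios are DTX-labelled over PBS-labelled, on a log2 scale after adding 1 CPM to each side, and their 95% intervals are exact binomial intervals of the ratio without that addition. At low counts a point can therefore lie at the edge of its interval or outside it.

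Collagen chains made up 2.70% of all kept UMIs in the PBS-labelled library (2192553 UMIs) and 0.952% in the DTX-labelled library (522209 UMIs). All 44 members had at least 1 UMI in kept cells, 21 had at least 1000 and 8 had fewer than 50 over both libraries. Col10a1, the chain of hypertrophic cartilage, was the only member without a UMI in the PBS-labelled library, and it had 2 UMIs in the other. Col1a1, Col1a2 and Col3a1, the chains of types I and III, gave 89.1% and 82.6% of the collagen UMIs. The library totals moved with the share of fibroblast-like cells. Those cells were 38.6% of the kept cells in the PBS-labelled library and 9.93% in the DTX-labelled library, and held 97.1% and 91.1% of all collagen UMIs. Fibroblast-like cells held 43.1% and 17.7% of kept UMIs, and classes are weighted by such UMI shares in what follows. With the DTX-labelled levels and the PBS-labelled mix of classes the collagen share would be 2.16%. With the PBS-labelled levels and the DTX-labelled mix it would be 1.20%.

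Within classes, collagen transcripts were concentrated in fibroblast-like cells and then in pericyte-like cells. Fibroblast-like cells (3066 and 657 cells) gave 6.08% of their UMIs to collagens (95% interval 6.07% to 6.08%) in the PBS-labelled library and 4.90% (4.88% to 4.91%) in the DTX-labelled library. Pericyte-like cells, the contractile cells that wrap small vessels (61 and 112 cells), gave 2.34% (2.31% to 2.37%) and 2.07% (2.04% to 2.09%). Endothelial-like cells (73 and 54 cells) gave 0.704% (0.688% to 0.720%) and 0.544% (0.528% to 0.561%). The order of these classes was the same in both libraries, and all other classes stayed below them. Epithelial-like cells (2066 and 235 cells) gave 0.0962% and 0.0374%, and macrophage-like cells (1701 and 4431 cells) gave 0.0553% and 0.0148%. Neutrophil-like cells (130 and 458 cells), at median depths of only 1229 and 1914 UMIs, gave 0.156% and 0.0315%. The log2 ratios were −0.31 (−0.32 to −0.31) in fibroblast-like cells, −0.18 (−0.20 to −0.15) in pericyte-like cells, −0.37 (−0.43 to −0.32) in endothelial-like cells, −1.36 (−1.44 to −1.29) in epithelial-like cells and −1.90 (−1.96 to −1.84) in macrophage-like cells. In the median endothelial-like cell the collagen share was 0.42% and 0.552%, and in the median pericyte-like cell 1.6% and 1.82%. Both medians were higher in the DTX-labelled library, opposite to the summed ratios. In the PBS-labelled library 1 endothelial-like cell held 11.5% of the collagen UMIs of its class. The median shares of fibroblast-like, epithelial-like and macrophage-like cells were lower, as were their sums. Per cell, fibroblast-like cells held on average 694 collagen UMIs in the PBS-labelled library and 724 in the DTX-labelled library, where their median depth was 13960 UMIs against 11177. The median cell held 606 and 571 collagen UMIs, and 540 and 473 UMIs of Col1a1, Col1a2 and Col3a1, so the mean and the median per cell differ in direction.

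**Figure D1:**
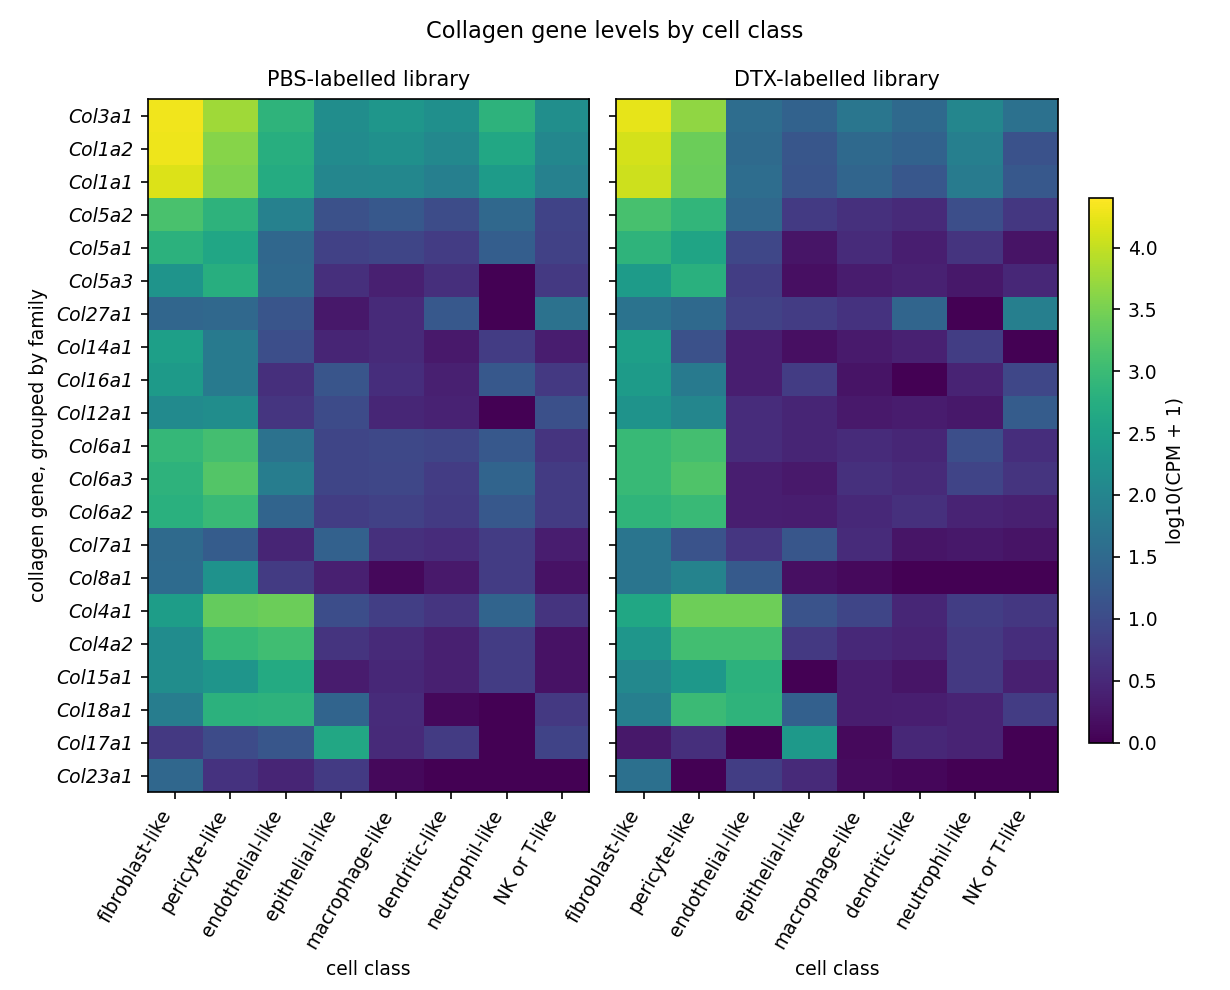
Heat map of the level of the 21 collagen genes with at least 1000 UMIs (rows) in 8 cell classes of each library (columns), coloured by log10 of CPM plus 1. Col1a1, Col1a2 and Col3a1 are highest in fibroblast-like cells, Col4a1 and Col4a2 are highest in endothelial-like and pericyte-like cells, and Col17a1 stands out in epithelial-like cells, in both libraries.

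Each class carried its own set of collagens. Of the 21 members with at least 1000 UMIs, 18 had their highest level in the same class in both libraries. In fibroblast-like cells 94.0% and 91.1% of collagen UMIs were fibril-forming chains. In pericyte-like cells the share was 64.1% and 55.5%, with 16.5% and 18.4% from type VI and 13.6% and 18.7% from type IV. In endothelial-like cells 52.4% and 70.6% were type IV chains, and 16.8% and 25.5% came from the multiplexins Col15a1 and Col18a1, basement membrane collagens whose C-terminal pieces are known as restin and endostatin. In epithelial-like cells 45.9% and 64.0% were transmembrane collagens, almost all of it Col17a1. Macrophage-like cells resembled fibroblast-like cells in make-up, with 91.1% and 81.6% fibril-forming chains.

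**Figure D2:**
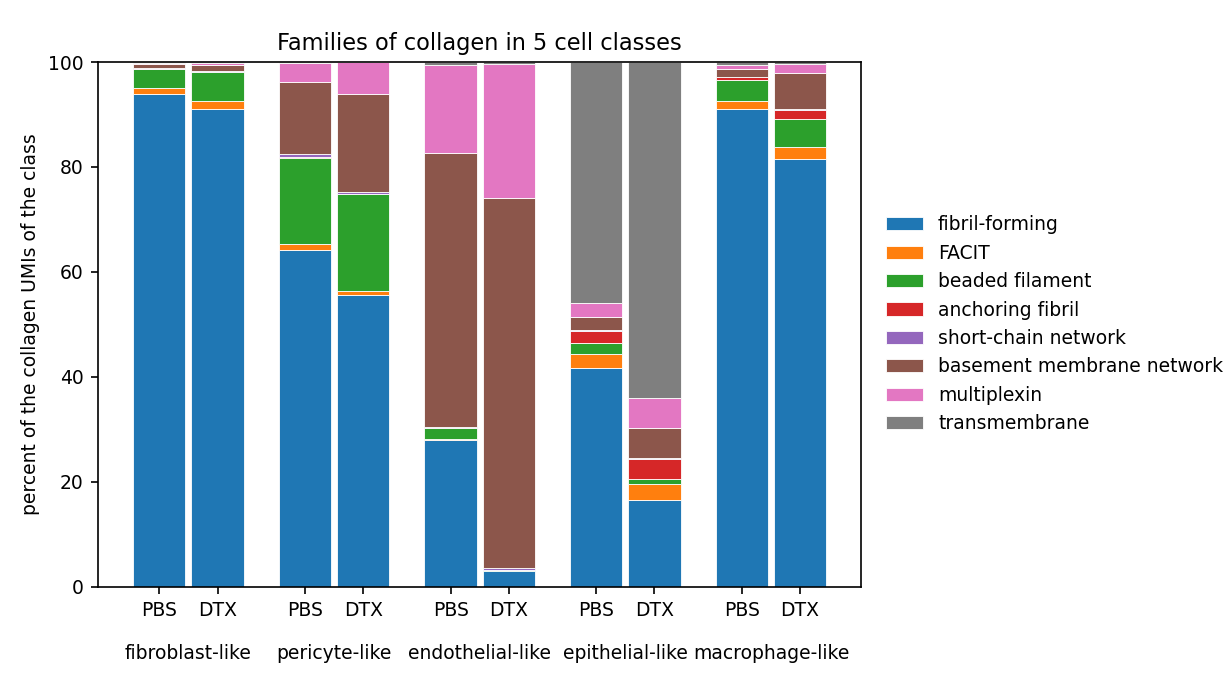
Stacked bars of the percentage of collagen UMIs that belong to each collagen family, for 5 cell classes in the PBS-labelled and the DTX-labelled library. Fibril-forming chains fill 94.0% and 91.1% of the fibroblast-like bars, type IV 52.4% and 70.6% of the endothelial-like bars, and transmembrane chains 45.9% and 64.0% of the epithelial-like bars.

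Summed over all fibroblast-like cells, the 3 main fibrillar chains were lower in the DTX-labelled library, and most minor chains were not. Ratios within clusters of the class differ and are given further on. Col3a1, the single chain of type III, stood at 20103 CPM (20057 to 20151) in the PBS-labelled library and at 17543 CPM (17460 to 17627) in the DTX-labelled library, a log2 ratio of −0.20 (−0.20 to −0.19). Col1a2 stood at 19785 CPM and 12981 CPM (−0.61, −0.62 to −0.60). Col1a1 stood at 14987 CPM and 11702 CPM (−0.36, −0.37 to −0.35). Col1a2 was thus the most reduced of the 3, and the ratio of Col1a1 to Col1a2 UMIs was 0.758 (0.755 to 0.760) in the PBS-labelled library and 0.901 (0.894 to 0.909) in the other. Type I is built from Col1a1 and Col1a2 chains in unequal number, but genes can be caught with different efficiency, so a ratio of chains is read only against the same ratio in another library or class. The type V chains, which help set fibril diameter, had ratios near 0 or above, with Col5a2 at 1360 CPM and 1300 CPM (−0.06), Col5a1 at 669 CPM and 720 CPM (0.11) and Col5a3 at 189 CPM and 262 CPM (0.47). Col24a1, another fibril-forming chain, stood at 5.77 CPM and 8.23 CPM.

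Across the 31 members with at least 50 UMIs in fibroblast-like cells over both libraries, 1 was lower by at least 1 log2 unit and 2 were higher. Among all 11814 genes with that many UMIs, 1.4% were lower and 2.65% higher by as much, and the median log2 ratio was 0.14 over the members and 0.12 over all genes. Against the median of all genes 16 members lay above and 15 below, and the signs of Col5a1, Col4a5, Col16a1 and Col18a1 turn when that median is taken as 0. The other 13 members had fewer than 50 UMIs there, among them the cartilage chains Col2a1, Col9a1, Col9a2 and Col10a1. The gene lower by over 1 unit was Col17a1, with 152 UMIs and 9 UMIs (4.34 CPM and 0.926 CPM, −1.47), and the keratinocyte genes measured in the same cells stood at 433 CPM and 105 CPM. Of the Col17a1 UMIs, 68 and 1 lay in the 49 and 45 cells of a cluster described further on. It was led by the immune genes Cd74 and Lyz2. The parts of keratinocyte RNA and of that cluster in the Col17a1 difference were not tested. With each cell thinned to 2000 UMIs 0 members were lower by 1 unit. The minimum of 50 UMIs applied to the thinned counts too, so a member with few UMIs can fall out there whatever its ratio. Col11a1, a chain of the minor fibrillar type XI that is best known from cartilage, was higher, with 283 UMIs and 301 UMIs, or 8.08 CPM (7.16 to 9.08) and 31.0 CPM (27.6 to 34.7), a log2 ratio of 1.82 (1.70 to 2.18). Col28a1, a collagen best known from peripheral nerve, stood at 1.26 CPM (44 UMIs) and 5.35 CPM (52 UMIs, 1.49). After the same thinning the members higher by 1 unit were Col11a1, Col6a6 and Col8a1. Col28a1 was not among them, which with so few UMIs does not speak to its ratio.

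**Figure D3:**
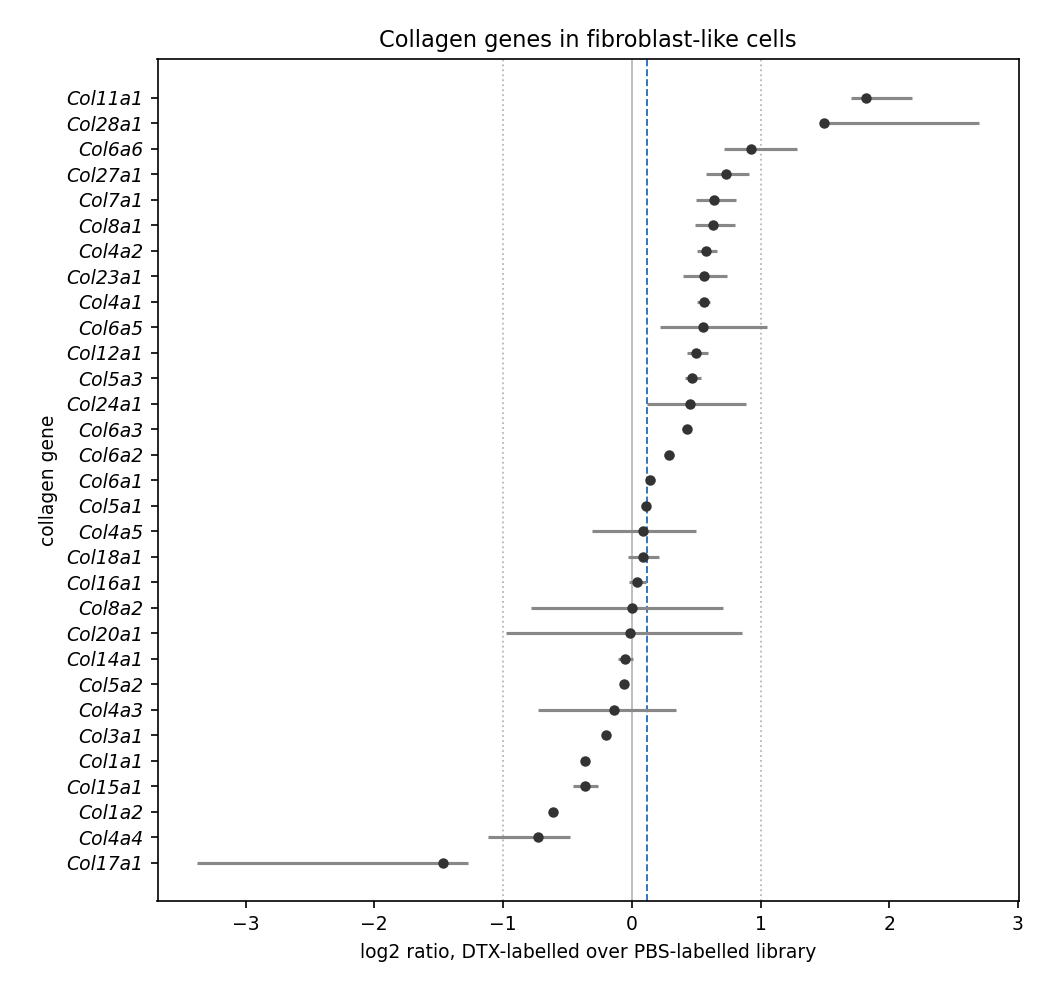
Log2 ratio (DTX-labelled over PBS-labelled library, horizontal axis) with its 95% counting interval for the 31 collagen genes with at least 50 UMIs in fibroblast-like cells. Dotted lines mark 1 log2 unit in each direction and the dashed line the median of all genes (0.12), with Col11a1 (1.82) and Col28a1 (1.49) beyond the right dotted line and Col17a1 (−1.47) beyond the left.

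Among the non-fibrillar members of fibroblast-like cells, Col4a1, Col4a2 and the 3 main type VI chains had ratios above 0, all under 1 log2 unit. Col4a1 stood at 278 CPM (273 to 284) and 410 CPM (398 to 423), a log2 ratio of 0.56, and Col4a2 at 135 CPM and 203 CPM (0.58). Col6a3, the largest chain of type VI, stood at 697 CPM and 937 CPM (0.43), Col6a2 at 613 CPM and 748 CPM (0.29) and Col6a1 at 848 CPM and 937 CPM (0.14). All 5 lay above the median of all genes, and type IV together stood at 441 CPM and 634 CPM. FACIT collagens, which sit on the surface of fibrils, were mixed, with Col12a1 at 129 CPM and 184 CPM (0.50), Col14a1 at 309 CPM and 299 CPM (−0.05) and Col16a1 at 250 CPM and 257 CPM (0.04). Col15a1 was lower (144 CPM and 112 CPM, −0.36) and Col18a1 was near its own level (72.6 CPM and 77.2 CPM, 0.09). Several low members were higher by 0.5 to 1 log2 unit. They were Col8a1, a short-chain network collagen (32.9 CPM and 51.3 CPM, 0.63), Col7a1 of the anchoring fibrils (32.5 CPM and 51.0 CPM, 0.64), the transmembrane Col23a1 (28.1 CPM and 41.8 CPM, 0.56), the fibrillar Col27a1 (27.3 CPM and 45.8 CPM, 0.73) and Col6a6, an alternative chain of type VI (8.51 CPM and 17.1 CPM, 0.93), with its neighbour Col6a5 (4.68 CPM and 7.30 CPM, 164 and 71 UMIs, 0.55). Col4a4 went the other way, at 16.8 CPM (587 UMIs) and 9.67 CPM (94 UMIs), −0.73, and its partner Col4a3 at 4.42 CPM (155 UMIs) and 3.91 CPM (38 UMIs), −0.14. Col4a5 stood at 6.51 CPM (228 UMIs) and 7.0 CPM (68 UMIs).

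These levels were next set beside the make-up of the fibroblast-like cells, which split into 6 clusters when neither collagens nor the subset markers were used. The largest, named Plac8-like from its markers and led by Sfrp2 and Mfap5, held 27.5% of the fibroblast-like cells in the PBS-labelled library (842 cells) and 44.4% in the DTX-labelled library (292 cells). A cluster led by Igfbp2 and Grem1 held 32.7% (1003 cells) and 14.2% (93 cells), one led by Ctla2a and Gpx3 held 25.5% (783 cells) and 9.44% (62 cells), and one led by Coch and Fmod, with the stress genes Hspa1a, Atf3 and Fos among its leading genes, held 12.0% (369 cells) and 21.5% (141 cells). These 3 were given no name by the subset markers. A cluster of 49 and 45 cells was led by the immune genes Cd74 and Lyz2, and the last had 20 and 24 cells, so neither is given levels here. That last cluster held 14 of the 44 and 28 of the 52 Col28a1 UMIs. Collagens took 6.04% and 5.26% of the UMIs in the Plac8-like cluster, 7.25% and 5.69% in the Igfbp2 cluster, 5.83% and 5.87% in the Ctla2a cluster and 3.74% and 3.54% in the Coch cluster. For the next values clusters are weighted by their share of UMIs, not of cells. With PBS-labelled cluster weights and DTX-labelled levels the share of all fibroblast-like cells would be 5.34%. With DTX-labelled weights and PBS-labelled levels it would be 5.58%, against the measured 6.08% and 4.90%.

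The 4 clusters with at least 50 cells in each library carried different collagens, and are ranked here among themselves. Col14a1, Col12a1, Col5a3 and Col8a1 were highest in the Plac8-like cluster in both libraries, at 677 CPM and 465 CPM for Col14a1, 307 CPM and 270 CPM for Col12a1, 446 CPM and 407 CPM for Col5a3 and 82.5 CPM and 74.1 CPM for Col8a1. Within that cluster their log2 ratios were −0.54, −0.19, −0.13 and −0.15, whereas over all fibroblast-like cells Col12a1, Col5a3 and Col8a1 were higher. In the Igfbp2 cluster all 4 were higher in the DTX-labelled library, Col14a1 by 1.38, Col12a1 by 3.16 (8.16 CPM and 81.1 CPM), Col5a3 by 1.08 and Col8a1 by 2.19 (16 and 14 UMIs). Col27a1 stood at 56.7 CPM and 57.7 CPM in the Plac8-like cluster (0.02), at 8.36 CPM and 22.6 CPM in the Igfbp2 cluster (1.34, 0.77 to 2.06) and at 37.1 CPM and 49.4 CPM in the Coch cluster (0.40). In the Igfbp2 cluster Col1a2 stood at 27346 CPM and 16886 CPM and Col1a1 at 20775 CPM and 16007 CPM, the highest levels of both chains in the PBS-labelled library, and in the Ctla2a cluster Col1a1 was higher in the DTX-labelled library (15648 CPM and 17895 CPM, 0.19). In the Plac8-like and Coch clusters the Col1a1 ratio was −0.06 and −0.06, and that of Col1a2 −0.22 and −0.24. Col5a1, Col5a2, Col6a1, Col6a2 and Col6a3 were lower within the Plac8-like cluster (−0.26, −0.20, −0.14, −0.13 and −0.08). In the Igfbp2, Ctla2a and Coch clusters these chains were level or higher. Col3a1 was highest in the Plac8-like cluster (25878 CPM and 21412 CPM). Col11a1 was highest in the Coch cluster, at 63.8 CPM (189 UMIs) and 101 CPM (145 UMIs, 0.65), and was higher within the Plac8-like cluster too, at 5.90 CPM (74 UMIs) and 22.0 CPM (114 UMIs, 1.74). Col4a1 was also highest in the Coch cluster (456 CPM and 585 CPM) and was higher in the DTX-labelled library in all 4 clusters, by 0.50, 0.51, 0.24 and 0.36.

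Single fibroblast-like cells varied widely in their collagen share. Of these cells 10% lay under 2.01%, the median was 5.63% and 90% lay under 10.3% in the PBS-labelled library, against 1.15%, 4.03% and 9.03% in the DTX-labelled library. More than 10% of UMIs were collagen in 346 cells (11.3%) and 42 cells (6.39%). After each cell was thinned to 2000 UMIs, the levels of Col1a1 and Col1a2 over 2984 and 650 fibroblast-like cells had a Spearman correlation of 0.88 in both libraries. Col3a1 had 0.59 and 0.73 with Col1a1, and Col6a2 had 0.33 and 0.43 with Col6a3. Col4a1 and Col4a2 had 0.26 and 0.34, and Col4a1 had −0.22 and −0.23 with Col1a1. The cells of a library share 1 preparation, and sparse counts hold the correlations of low genes near 0.

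Pericyte-like cells carried less type I and III RNA and more type IV, VI and XVIII than fibroblast-like cells in both libraries. Of 20 members with at least 50 UMIs there, 1 was lower and 1 higher by 1 log2 unit, against 2.11% and 2.22% of 5637 genes. Col3a1 stood at 5839 CPM and 4648 CPM (−0.33), Col1a2 at 3934 CPM and 2565 CPM (−0.62) and Col1a1 at 3536 CPM and 2454 CPM (−0.53), a direction shared with fibroblast-like cells. These sums leaned on few cells, as 6 of the 61 PBS-labelled cells held 54.5% of the UMIs of these 3 chains. In the DTX-labelled library 11 of the 112 cells held 31.8%. The median pericyte-like cell held 88 and 112.5 such UMIs, the opposite direction to the sums. Col4a1 stood at 2256 CPM (2159 to 2357) and 2707 CPM (2629 to 2787), and Col18a1 at 678 CPM (625 to 734) and 1003 CPM (956 to 1053, 0.57). The member lower by over 1 unit was Col14a1, with 54 UMIs and 19 UMIs (60.4 CPM and 11.3 CPM, −2.32), and the higher one was Col6a6, with 5 UMIs and 55 UMIs (5.59 CPM and 32.7 CPM, 2.36). Col8a1 was lower (172 CPM and 90.5 CPM, −0.92), opposite in sign to its ratio in fibroblast-like cells. A list of 10 fibroblast genes that are no collagens (Dcn, Lum, Dpt, Mmp2, Pcolce, Postn, Fbln1, Aebp1, Serpinf1 and Rarres2) stood at 4641 CPM and 2510 CPM in the same cells, and their part in the fibrillar collagen and Col14a1 differences was not tested.

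Endothelial-like cells showed even levels of the vascular basement membrane chains and very uneven levels of fibrillar chains. Col4a1 stood at 2584 CPM (2487 to 2683) and 2648 CPM (2534 to 2765), Col4a2 at 1102 CPM (1040 to 1168) and 1191 CPM (1115 to 1271), and Col18a1 at 690 CPM (641 to 743) and 714 CPM (656 to 777). The intervals of each pair overlap. Col15a1 was higher in the DTX-labelled library, at 490 CPM (449 to 534) and 673 CPM (616 to 733, 0.46). In contrast Col3a1 stood at 720 CPM and 36.4 CPM (−4.27), Col1a2 at 581 CPM and 32.5 CPM (−4.12) and Col1a1 at 500 CPM and 36.4 CPM (−3.74). Of 9 members with at least 50 UMIs, 5 were lower by 1 log2 unit and 0 higher, where 2.65% of 4990 genes were lower and 1.86% higher. These 5 were Col1a1, Col1a2, Col3a1, Col5a2 and Col6a3. In the PBS-labelled library 91.3% of the 1888 UMIs of the 3 main fibrillar chains lay in 7 of the 73 cells, and the median cell held 3. The 10 other fibroblast genes stood at 1251 CPM and 229 CPM in the same cells, and their part was not tested. The doublet rule differed between the libraries. With doublets kept the class held 81 and 78 cells, and its collagen log2 ratio was −0.60. The part of the doublet rule in the fibrillar difference was not tested.

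Epithelial-like cells carried Col17a1 and Col7a1, which tie the epidermis to the dermis, though only Col17a1 was highest in this class. Col17a1, a hemidesmosome component, stood at 437 CPM (430 to 445, 12448 UMIs) in the PBS-labelled library and at 236 CPM (221 to 252, 917 UMIs) in the DTX-labelled library, a log2 ratio of −0.89 (−0.99 to −0.79). Col7a1 stood at 22.0 CPM (20.3 to 23.8) and 13.9 CPM (10.4 to 18.1, −0.63), below its 32.5 CPM and 51.0 CPM in fibroblast-like cells. Col18a1 stood at 25.1 CPM and 21.6 CPM with overlapping intervals. The class held 1127 and 78 cells of a cluster led by Krt1 and Krt10 among others. It also held 939 and 157 cells of one led by Cst6 and Krt79. At a finer clustering (resolution 0.4) 488 and 73 epithelial-like cells lay in a cluster led by Krt5, Krt6a and Krt14. There the Cst6 cluster held 451 and 84 cells and the Krt1 cluster 1127 and 78. The part of this make-up in these ratios was not tested. Keratinocyte genes as a list were nearly level in these cells (44544 CPM and 47179 CPM, 0.08). Of 20 members with at least 50 UMIs, 11 were lower by 1 log2 unit and 0 higher, against 2.07% and 2.67% of 10288 genes. The 11 were fibrillar, type VI and FACIT chains, led by Col1a2 at 132 CPM and 13.9 CPM (−3.16), Col1a1 at 104 CPM and 12.9 CPM (−2.92) and Col3a1 at 144 CPM and 23.2 CPM (−2.58). In the PBS-labelled library 21 of the 2066 cells held 23.5% of all epithelial-like collagen UMIs. The median level of the 10 other fibroblast genes in this class was 0.849% and 0.17% of their fibroblast-like level, while their sum, of which Postn was 185 CPM and 197 CPM, stood at 475 CPM and 262 CPM. Their part in the 11 differences was not tested. The X-linked pair Col4a5 and Col4a6 passed 50 UMIs for both genes in this class only, with 166 UMIs and 90 UMIs in the PBS-labelled library. In fibroblast-like cells Col4a5 had 228 UMIs and Col4a6 had 2, so the ratio of the chains was 1.84 (1.42 to 2.41) in epithelial-like and 114 (31.2 to 947) in fibroblast-like cells.

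Chains of the same collagen type were compared with each other within classes. Col4a1 to Col4a2 was 2.06 (1.99 to 2.13) and 2.02 (1.92 to 2.14) in fibroblast-like cells, 2.51 (2.31 to 2.73) and 2.35 (2.23 to 2.48) in pericyte-like cells and 2.34 (2.19 to 2.51) and 2.22 (2.05 to 2.41) in endothelial-like cells. Within each class the intervals of the libraries overlap. Col5a3 to Col5a1 was 0.283 (0.275 to 0.290) and 0.365 (0.348 to 0.382) in fibroblast-like cells but 1.42 (1.24 to 1.63) and 1.65 (1.49 to 1.82) in pericyte-like cells, a higher ratio in that class in both libraries. Col6a1 to Col6a3 was 1.22 (1.20 to 1.24) and 1.00 (0.971 to 1.03) in fibroblast-like cells and 0.747 (0.691 to 0.809) and 0.771 (0.727 to 0.817) in pericyte-like cells. Col6a1 to Col6a2 lay between 1.25 and 1.38 in both classes. Col4a3 to Col4a4 was 0.264 (0.220 to 0.316) and 0.404 (0.270 to 0.595) in fibroblast-like cells, and Col8a1 to Col8a2 was 15.1 and 23.8.

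**Figure D4:**
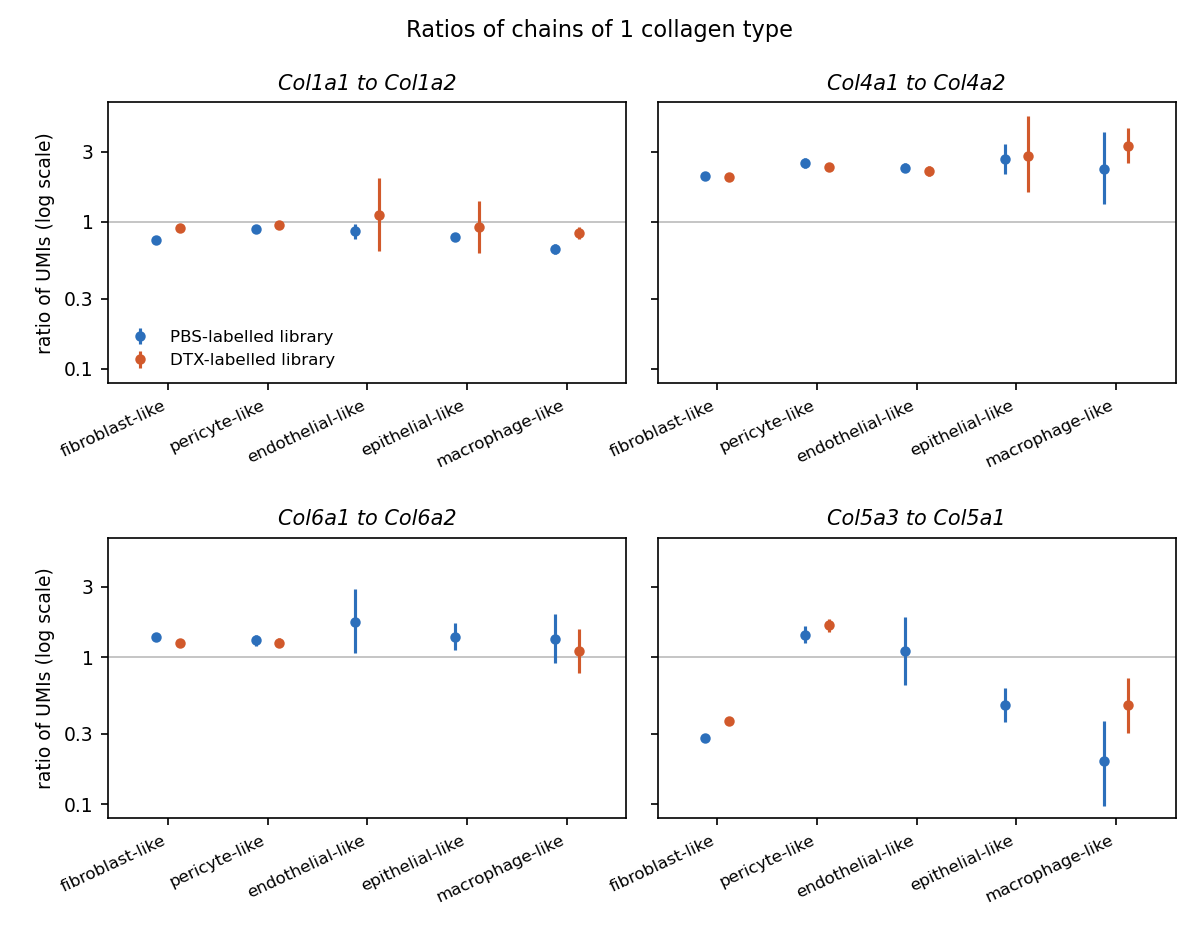
Ratio of UMIs between partner chains on a log axis, with 95% counting intervals, for 4 chain pairs in 5 cell classes of each library. The Col4a1 to Col4a2 ratio lies between 2.02 and 2.51 in fibroblast-like, pericyte-like and endothelial-like cells, while Col5a3 to Col5a1 is under 0.4 in fibroblast-like and over 1 in pericyte-like cells.

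Collagen UMIs also appeared in immune cells, at low levels whose source, free RNA or the cells themselves, was not tested. Of macrophage-like cells thinned to 2000 UMIs, 65.7% (63.2% to 68.1%, 1479 cells) held a collagen UMI in the PBS-labelled library and 25.7% (24.4% to 27.1%, 4292 cells) in the DTX-labelled library. Before thinning 10.5% and 40.8% of the macrophage-like cells held none. Keratinocytes, which are not known to make fibrillar collagen, give the background for single chains. Col3a1 was met in 35.5% and 10.5% of thinned macrophage-like cells against 19.4% and 5.68% of thinned epithelial-like cells, and the median depths were 4711 and 6724 UMIs against 12592 and 16070. Before thinning the shares were 62.4% and 28.2% against 68.3% and 30.2%. The collagen level of macrophage-like cells was 0.911% of the fibroblast-like level in the PBS-labelled library, where 10 fibroblast genes that are no collagens had a median of 1.14% (range 0.707% to 1.96%). In the DTX-labelled library it was 0.302%, with a median of 0.284% (0.207% to 0.615%). In both libraries the collagens thus fell inside the range of the other fibroblast genes. The mix of chains was not the same as in fibroblast-like cells, with a Col3a1 to Col1a1 ratio of 1.94 (1.79 to 2.11) and 1.99 (1.82 to 2.16) in macrophage-like cells against 1.34 (1.34 to 1.35) and 1.50 (1.49 to 1.51) in fibroblast-like cells. This was not particular to macrophage-like cells. The ratio was 1.96 and 2.07 in dendritic-like, 2.65 and 1.61 in neutrophil-like and 1.76 and 2.73 in NK or T-like cells. It was 1.38 and 1.80 in epithelial-like cells, and 1.37 in PBS-labelled Langerhans-like cells. The 10 keratinocyte genes in macrophage-like cells moved the same way, from 1.29% to 0.384% of their epithelial-like level, and the level of collagens over all barcodes was 24505 CPM and 9098 CPM. As a share of that library-wide level the collagens of macrophage-like cells were at 2.26% and 1.63%. In these cells 15 members reached 50 UMIs, of which 8 were lower by 1 log2 unit and 0 higher, beside 3.32% and 1.64% of 10167 genes. They were Col1a1, Col1a2, Col3a1, Col5a1, Col5a2, Col6a1, Col6a2 and Col6a3, and the 10 other fibroblast genes stood at 362 CPM and 60.5 CPM in the same cells. At a finer clustering (resolution 0.4) a cluster led by C1qb and C1qa held 1619 and 2040 macrophage-like cells and one led by Chil3 and Arg1 held 77 and 2361, so the class held different cells in the libraries.

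**Figure D5:**
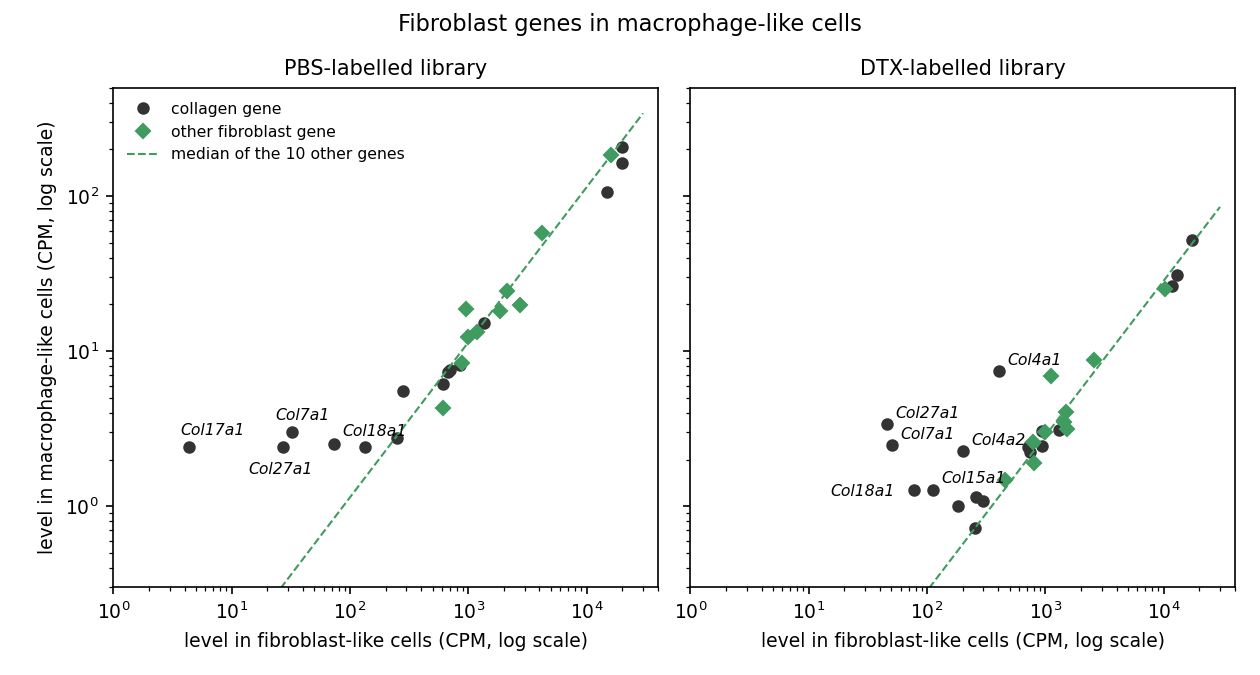
Level in macrophage-like cells against level in fibroblast-like cells (CPM, both axes logarithmic) for collagen genes and 10 other fibroblast genes, in each library (a minimum of 20 UMIs in the macrophage-like cells applies). The dashed line is the median percentage of the 10 other genes (1.14% and 0.284%), and Col1a1, Col1a2 and Col3a1 lie near it while Col27a1 and Col7a1 lie above it.

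A few members stood out from this common level in immune cells. Col27a1, a fibrillar chain of cartilage and other tissues, was the clearest. In NK or T-like cells it had 74 UMIs in the PBS-labelled library and 112 UMIs in the DTX-labelled library, or 45.4 CPM (35.7 to 57.0) and 79.0 CPM (65.1 to 95.1), which is 166% and 173% of its level in fibroblast-like cells. After thinning, 8.22% (4.94% to 12.7%) and 13.9% (8.82% to 20.5%) of these cells held a Col27a1 UMI, against 0.148% (0.0305% to 0.431%) and 0.873% (0.106% to 3.12%) of epithelial-like cells. Before thinning the shares were 12.9% and 15.9% of NK or T-like cells, at median depths of 6534 and 8059 UMIs, and 1.11% and 3.40% of epithelial-like cells. Dendritic-like cells had 65 UMIs and 135 UMIs of Col27a1 (15.6 CPM and 26.4 CPM, 57.3% and 57.6% of the fibroblast-like level), and neutrophil-like cells had none among 200479 and 1128436 UMIs, in which a floor of 3 counts is 15.0 CPM and 2.66 CPM. In macrophage-like cells it stood at 2.40 CPM and 3.40 CPM, or 8.80% and 7.43% of the fibroblast-like level. Col27a1 was thus present above the common level in lymphoid and dendritic-like cells of both libraries.

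The other members above the common level were met less evenly. In macrophage-like cells the members at over 3 times the median of the other fibroblast genes were Col27a1, Col18a1, Col7a1 and Col17a1 in the PBS-labelled library, and Col27a1, Col18a1, Col7a1, Col15a1, Col4a1 and Col4a2 in the DTX-labelled library. Col4a1 had 227 UMIs (7.43 CPM, 6.49 to 8.46) in the DTX-labelled macrophage-like cells and 46 UMIs (5.52 CPM, 4.04 to 7.37) in the others, and these intervals overlap. Several of these genes have another main source, so the fibroblast-like level is a poor yardstick for them. Col17a1 in macrophage-like cells of the PBS-labelled library was 1.42% of its library-wide level, Col18a1 3.94% and Col4a1 2.97%, beside 2.26% for all collagens, whereas Col27a1 was 16.0% and Col7a1 11.3%. Col15a1, Col4a1 and Col4a2 passed the limit only in the DTX-labelled library, for which these shares are not given. A member that is low in fibroblast-like cells can reach the minimum of 20 UMIs only when it lies above the line. In Langerhans-like cells, which live among keratinocytes (122 cells in the PBS-labelled library), Col7a1 had 36 UMIs, or 28.6 CPM, against 22.0 CPM in epithelial-like cells, while the keratinocyte genes there stood at 0.814% of their epithelial-like level. Col16a1 was also above 3 times the median there, as were Col17a1 in dendritic-like cells of the PBS-labelled library (20 UMIs, 2.84% of its library-wide level) and Col12a1 in NK or T-like cells of the DTX-labelled library (26 UMIs).

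The genes that process collagen mostly lay within 1 log2 unit in fibroblast-like cells, as did most of all genes. Of 35 listed genes for chain modification, folding, export, cleavage and cross-linking, 32 had at least 50 UMIs, 1 was lower by 1 log2 unit and 0 higher, with a median log2 ratio of 0.09. Among all 11814 genes measured there, 1.4% were lower and 2.65% higher by as much, with a median of 0.12. Sparc, a collagen-binding matricellular protein, stood at 17059 CPM and 12020 CPM (−0.51), near the shift of Col1a2. Serpinh1, the collagen chaperone HSP47, stood at 1505 CPM and 1726 CPM (0.20), Pcolce, an enhancer of procollagen cleavage, at 889 CPM and 805 CPM (−0.14), Ppib, a proline isomerase, at 861 CPM and 872 CPM (0.02), and Lox, the cross-linking lysyl oxidase, at 815 CPM and 620 CPM (−0.39). The gene lower by over 1 unit was Pcolce2, at 445 CPM (438 to 452) and 183 CPM (175 to 192), −1.28. In pericyte-like cells 28 of the 35 were measured and 2 were lower, Lox and Loxl1, beside the 2.11% of all genes. In macrophage-like cells 19 were measured and 7 were lower (Creb3l1, Pcolce, Serpinh1, Bmp1, Adamts2, Sparc and Lox), beside the 3.32% of all genes and the lower level of the 10 other fibroblast genes, of which Pcolce is one. Of 11 collagen receptors, 8 were measured in fibroblast-like cells and none was past 1 log2 unit, beside the same shares of all genes. In macrophage-like cells 4 were measured and 1 was past it, where 3.32% of 10167 genes were lower and 1.64% higher. It was Itga1, the integrin chain of the collagen receptor α1β1, at 11.3 CPM (94 UMIs) and 71.6 CPM (2189 UMIs), a log2 ratio of 2.56 (2.37 to 2.98). The part of the different macrophage-like clusters in this ratio was not tested.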

How the data were processed

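Per the file headers and labels, the authors deposited unnormalised UMI counts (Cell Ranger 6.1.1, mm10), as a matrix of genes by cells, for 2 libraries of live cells from wound tissue. Their methods name an earlier release of the same program, and state technical but no biological replicates. The members, gene lists and alternatives were chosen with earlier results of these data known.

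Cells were kept from 500 genes upward and up to 6% mitochondrial UMIs. Scrublet (in scanpy 1.11.5, expected rate 8%) marked 382 cells (4.59%) of the PBS-labelled library. It marked 0 in the other, so the top 8% by score (575 cells) were left out there. Cells were clustered with Seurat 5.3.0 (R 4.3.3, 2000 variable genes without collagens, 30 principal components, resolution 0.2). A cluster was named by the list with most markers among its 10 leading genes, and at a tie by the larger share of markers raised. Raised means at least 2-fold (50 CPM added, in at least 10% of cells), and 3 raised markers were needed. A cluster also stayed unnamed where another list tied with at least 3 leading markers. Counts were summed per class and library (Python 3.11.15, numpy 2.4.6, scipy 1.17.1, pandas 2.3.3, matplotlib 3.10.9). CPM has exact Poisson and shares have Clopper-Pearson 95% intervals, which cover counting error only. Each cell was thinned to 2000 UMIs where shares of cells are given, and shallower cells were left out of those shares. With 1 library per group no test was made. The scripts were tested on simulated data.

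Levels are named for members with at least 1000 UMIs over both libraries, ratios for those with at least 200 UMIs in a class or, from 50 UMIs, past 1 log2 unit, and immune levels for members with at least 20 UMIs at over 3 times the median of 10 other fibroblast genes. Not every member that meets these limits is given a ratio in every class, and Col24a1 and Col4a5 are given as levels only. Members outside this rule that are named (cartilage chains, partner chains, Col27a1 in neutrophil-like cells, Col7a1 in epithelial-like cells) were chosen after their values were seen. Of the processing genes, the 5 highest in fibroblast-like cells and those past 1 log2 unit are named. A class with fewer than 50 cells in a library was given no level. Alternatives changed the doublet rule, the cell filter, the depth, the scaling, the averaging and the UMI minimum.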

Additional observations from a re-analysis of the deposited data

Results flagged for a closer look

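In 11 cases a collagen chain was lower by at least 1 log2 unit in 1 cell class of the DTX-labelled library while the whole counting interval of its ratio lay above 0 in fibroblast-like cells. The differences between classes were not tested, since each group has 1 library. In epithelial-like cells the log2 ratios were −1.86 for Col12a1, −2.00 for Col5a1, −1.36 for Col5a3, −1.55 for Col6a1, −1.45 for Col6a2 and −2.05 for Col6a3. In macrophage-like cells they were −1.28 for Col5a1, −1.41 for Col6a1, −1.14 for Col6a2 and −1.08 for Col6a3. In endothelial-like cells Col6a3 stood at −5.00, with 76 UMIs and 1 UMI. In fibroblast-like cells the ratios were 0.50 for Col12a1, 0.11 for Col5a1, 0.47 for Col5a3, 0.14 for Col6a1, 0.29 for Col6a2 and 0.43 for Col6a3, and that of Col5a1 lay below the median of all genes (0.12). Within the Plac8-like cluster these ratios were −0.19, −0.26, −0.13, −0.14, −0.13 and −0.08, with whole intervals below 0. In the Igfbp2, Ctla2a and Coch clusters they were above 0, save −1.21 for Col12a1 in the Ctla2a cluster. The 10 other fibroblast genes were lower too in these 3 classes, by log2 ratios of −0.86, −2.56 and −2.45 in epithelial-like, macrophage-like and endothelial-like cells, and their part was not tested. In epithelial-like cells that value is a sum in which Postn stayed at 185 CPM and 197 CPM, and the median of the 10 genes was 0.849% and 0.17% of their fibroblast-like level.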

How the results depend on the processing

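Of 65 alternative values, 44 stayed within counting error or within 1.5 times a count and 21 moved. Only the log2 ratios among them could turn sign, and 0 did. In fibroblast-like cells the ratio stayed within counting error only at resolution 0.4, with collagens among the variable genes or with 0.1 CPM added. The first of these settings kept 3066 and 656 fibroblast-like cells and the next 3065 and 657, and so small an addition hardly alters such sums. The count of unchanged values is therefore no measure of stability. The median shares per cell were not among the 65 alternatives. As given above, those of endothelial-like and pericyte-like cells ran opposite to the summed ratios. With doublets kept, the collagen log2 ratio was −0.29 in fibroblast-like, −0.60 in endothelial-like and −1.67 in epithelial-like cells, and the shares of fibroblast-like cells were 5.77% and 4.72%. With each cell thinned to 2000 UMIs the ratios were −0.36, −0.11, −0.17, −1.22 and −1.81 in fibroblast-like, pericyte-like, endothelial-like, epithelial-like and macrophage-like cells, the shares were 5.95% and 4.64%, and 0 members were lower by 1 log2 unit in fibroblast-like cells. The minimum of 50 UMIs was kept on the thinned counts, so members with few UMIs can fall out whatever their ratio. Scaling to non-collagen UMIs gave −0.33 and scaling by the median ratio over genes −0.43 in fibroblast-like cells. Cells with at most 2000 genes gave −1.66 in macrophage-like cells and a share of 5.80% in PBS-labelled fibroblast-like cells, and left too few cells for the other classes. The mean over cells, taken for fibroblast-like cells only, was 5.94% and 4.63%. At a minimum of 200 UMIs 0 members were lower and 1 was higher (Col11a1). No paired analysis was possible because each group holds 1 library, and no library could be left out. The cause of these moves was not tested. Depth limits the classes with few cells, since 1 UMI was worth over 1 CPM in DTX-labelled endothelial-like cells.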
